A study of Sus scrofa with 6 samples.

Results

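The genes described here are those of the complement system, of blood coagulation and of fibrinolysis, the dissolving of clots, in whole lung of piglets around birth. The members were 45 gene symbols, 29 of complement and 16 of clotting and fibrinolysis, looked up by pig Ensembl identifier in a table of 14579 mRNAs. Rows were found for 32 of them, 18 complement and 14 clotting genes. For 29 the symbol came from a gene name table. C1QC, THBD and PLAUR had their symbol only through the study's own list of differentially expressed genes, so they could be found only because that list held them, and counts are given with and without them. No row was matched for C1QB, C1R, C1S, MASP1, CD46, CD55, CD59, C5AR1, ITGAX, CR2, VSIG4, F5 and F2R, which are not analysed here. All libraries were made from female hybrid piglets with a Tibetan sire and a Meishan dam, 3 of a fetal group taken on the last day before birth (Fetal1 to Fetal3) and 3 of a neonatal group taken 2 days after birth (Neonatal1 to Neonatal3). By the study's methods the animals were bled after an injection of ketamine. Each piglet came from a different sow, so litter and piglet cannot be told apart.

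Complement is a chain of plasma proteins that marks microbes and damaged cells for uptake. C1q bound to antibody starts the classical pathway, mannose-binding proteins start the lectin pathway, and the alternative pathway amplifies both. All meet at C3, and C5 to C9 then build a pore in the target membrane. Coagulation begins when tissue factor meets factor VII and ends in fibrin, anticoagulants such as thrombomodulin and the serpins hold thrombin back, and plasmin, released from plasminogen by its activators, removes the fibrin. Most of the circulating proteins of both systems are made in liver, while lung macrophages, endothelium, epithelium and fibroblasts make some of them locally.

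Values are FPKM, fragment counts scaled to transcript length and to the mapped reads of the library, which the authors computed per library. Levels of different genes can therefore be compared per length. Differences are neonatal minus fetal means of log2(FPKM + 1), which understates the change of low genes, with the standard error, the 95% interval and the Benjamini-Hochberg adjusted p from limma fitted over all mRNAs. An adjusted p of 0.05 or less is called past the threshold. The files hold no read counts, so the depth behind a value is unknown, and the spread over 3 piglets was the only error available. A value of 0 is given as listed at 0.

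Over all mRNAs, 6.87% were past the threshold, 5.41% higher and 1.45% lower after birth. An unadjusted p under 0.05 was found for 24.2%. Non-overlapping groups were more common, since the neonatal values were all above the fetal ones in 20.9% of mRNAs and all below them in 9.64%. The median difference of all mRNAs was 0.13 and became -0.0090 under median-of-ratios scaling of the libraries, and differences of this size are read against that shift. Of the calls, 78.8% were in the higher direction as deposited, 66.0% after median-of-ratios scaling and 57.9% after quantile normalization. The tissue label was checked against lung markers. The alveolar type II gene SFTPC lay between 3171 and 8790 FPKM and the endothelial gene PECAM1 between 120 and 145 FPKM in every library. The liver gene ALB did not exceed 0.570 FPKM, and the liver gene AMBP did not exceed 1.2955 FPKM. APOA1, another hepatocyte marker, lay between 8.697 and 32.4 FPKM, so not every liver gene measured was low.

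The complement genes spanned a wide range of levels. C1QA, C1QC, C3 and CFD lay above 100 FPKM in every library, 10 of the 18 lay above 10 FPKM in every library, and C8G and ITGAM stayed below 5 FPKM in each. CFD, the protease factor D that activates factor B, had the highest level of all members, at 1852, 2073 and 2733 FPKM in the fetal libraries and 1306, 2033 and 2644 FPKM in the neonatal ones. Its groups overlapped widely. Between the groups, C6 rose and C7 fell, and the other 16 complement genes were not past the threshold. These 2 calls of 18 (11.11%) stand beside 6.87% of all mRNAs, and 8 of 18 had an unadjusted p under 0.05, beside 24.2% of all mRNAs. Without C1QC, 2 of 17 were past the threshold (11.76%), and 8 of 17 had an unadjusted p under 0.05. The groups did not overlap for 5 complement genes in the higher direction (C2, CFP, C6, C3AR1 and ITGB2), where 20.9% of all mRNAs did the same, and for 3 in the lower direction (C4A, C7 and SERPING1), beside 9.64%. The median difference was 0.25 over the 18 genes, against 0.13 over all mRNAs, and without C1QC it was also 0.13. It was 0.077 under median-of-ratios scaling and turned to -0.10 under quantile normalization.

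**Figure D1:**
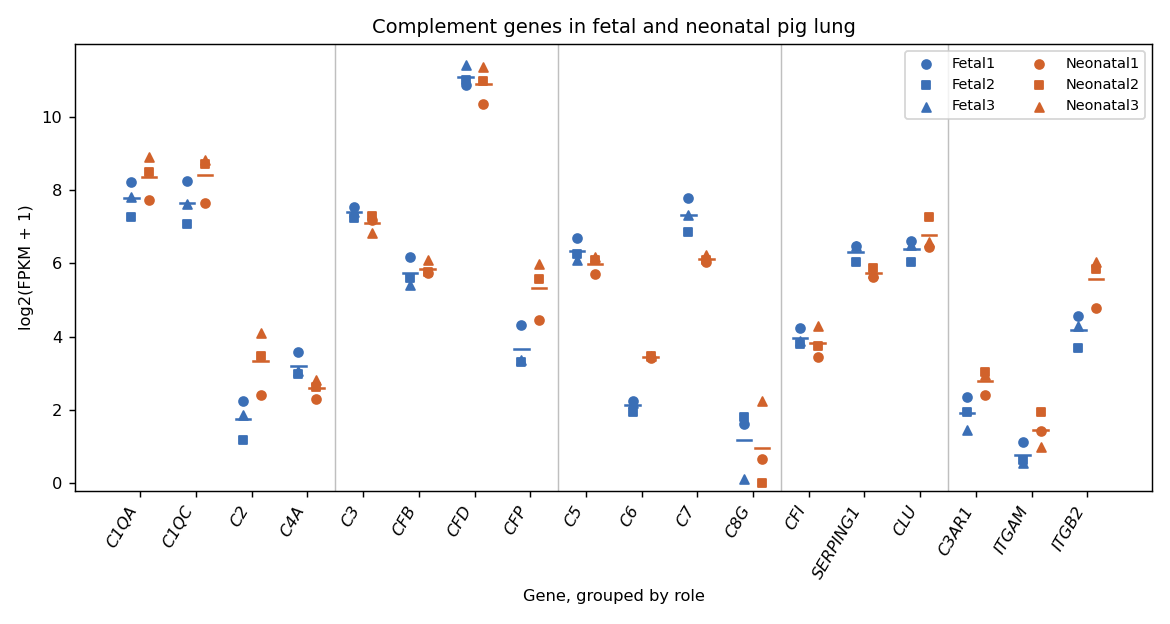
Level of the 18 complement genes as log2(FPKM + 1) in each library, with genes on the horizontal axis in blocks for the classical pathway, C3 and the alternative pathway, the terminal pathway, soluble inhibitors and receptors; points are libraries, marker shapes give the replicate and short lines are group means. C6 and C7 separate by group in opposite directions, while CFD sits at the top with overlapping groups.

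The terminal pathway held both calls of the complement genes, in opposite directions. C6 and C7 are neighbouring components of the membrane attack complex, and C7 joins the growing complex right after C6. C6 (ENSSSCG00000016861) had 3.74, 2.83 and 3.59 FPKM in the fetal libraries and 9.70, 10.1 and 10.1 FPKM in the neonatal libraries. The neonatal values lay close together and far above every fetal value. The fetal mean was 3.39 ± 0.486 FPKM and the neonatal mean 9.96 ± 0.225 FPKM (SD, n = 3 each). C6 thus rose 2.94-fold, a difference of 1.33 (standard error 0.18, interval 0.92 to 1.74, adjusted p = 0.00799). C6 stayed past the threshold with any library left out other than Fetal2, without which the adjusted p was 0.0516.

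C7 (ENSSSCG00000016859) was far more abundant than C6 before birth. It stood at 218, 115 and 160.0 FPKM in the fetal libraries and at 65.1, 68.0 and 74.6 FPKM in the neonatal libraries. The fetal values were widely spread but all above the neonatal ones. The means were 164 ± 51.5 FPKM before and 69.2 ± 4.83 FPKM after birth (SD, n = 3 each). C7 fell, its level 2.37-fold higher in the fetal group, and the difference was -1.19 (standard error 0.27, interval -1.81 to -0.57, adjusted p = 0.0414). This call was lost when any of the 6 libraries was left out, with adjusted p between 0.0577 and 0.137, while the direction stayed.

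The ratio of C7 to C6 within a library is the same for any single scaling factor per library. It was chosen, like the other ratios below, after the values had been seen, and 7 such ratios were computed. In the fetal libraries C7 had 58.2, 40.6 and 44.6 times the FPKM of C6, and in the neonatal libraries 6.71, 6.74 and 7.39 times. The mean ratio was 6.88 times larger before birth than after it, and the neonatal values differed little among themselves. An exact permutation test gave a two-sided p = 0.1, the smallest that 3 against 3 allows, or 0.233 after adjustment over the 7 ratios. This outcome was fixed by the choice of the pair, because C6 and C7 each separated the groups, in opposite directions. It adds no evidence to the values of the single genes. In the RefSeq annotation of assembly Sscrofa11.1, which is not the build of the files, both genes lie on chromosome 16 with 1 coding gene, MROH2B, between them.

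**Figure D2:**
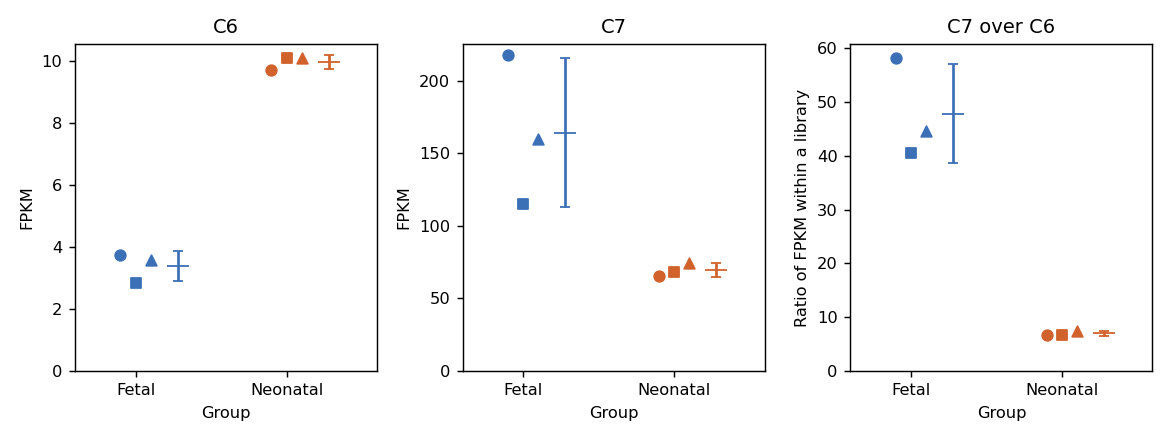
FPKM of C6 and of C7 and the ratio of C7 to C6 within each library, by group; points are libraries, with marker shapes for the replicate, and bars give the mean and SD of 3 libraries. C6 is about 3.39 FPKM before and 9.96 FPKM after birth, C7 goes from 164 to 69.2 FPKM, and the ratio goes from 47.8 to 6.95.

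The other terminal components were not past the threshold. C5, the source of the C5a fragment and the first protein of the pore, had 102, 75.4 and 67.3 FPKM in the fetal and 51.0, 66.9 and 71.5 FPKM in the neonatal libraries. Only Fetal1 and Fetal2 lay above all neonatal values, and the difference of -0.36 had an interval from -0.91 to 0.20. C8G, the gamma chain of C8, ranged from 0.0844 to 2.50 FPKM before birth and from being listed at 0 in Neonatal2 to 3.74 FPKM in Neonatal3, so that its level was not resolved. C9, which forms the pore wall and was no member, was low throughout, between 0.813 and 1.95 FPKM.

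In the classical pathway, the C1q chains were high and variable, and C2 and C4A stood apart by group without passing the threshold. C1QA and C1QC encode chains A and C of C1q, the recognition molecule made mainly by macrophages. C1QA had 299, 154 and 223 FPKM in the fetal and 210.3, 359 and 475 FPKM in the neonatal libraries, with Neonatal1 below Fetal1 and Fetal3. C1QC, whose symbol came through the study's list, followed it closely, at 302, 135 and 195 FPKM and at 202, 418 and 455 FPKM. Within each library the chains stood near parity, with C1QC at 0.872 to 1.17 times C1QA. Their differences were 0.60 (interval -0.31 to 1.501, adjusted p = 0.386) and 0.76 (interval -0.23 to 1.74, adjusted p = 0.317).

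C2, the protease that joins C4b in the classical C3 convertase, had 3.72, 1.29 and 2.63 FPKM before birth and 4.34, 10.1 and 16.3 FPKM after it. The groups did not overlap, but Neonatal1 lay just above Fetal1. The difference was 1.57 (standard error 0.46, interval 0.50 to 2.63, adjusted p = 0.0900). Without Neonatal1 it was 2.03 with an adjusted p of 0.0439, and with any other library left out the adjusted p was 0.143 to 0.282. C4A, the partner of C2, pointed the other way, from 11.01, 6.88 and 7.37 to 3.95, 5.22 and 6.10 FPKM, with a difference of -0.62 (interval -1.18 to -0.06, adjusted p = 0.169). C4 genes can have near-identical copies that share reads, so its level is uncertain.

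Of C3 and the alternative pathway, only properdin separated the groups. C3, the protein on which all pathways converge, had 186, 149 and 168 FPKM in the fetal and 144, 156 and 113 FPKM in the neonatal libraries. These overlapped, and the difference of -0.29 lay in an interval from -0.81 to 0.23. CFB, factor B, the protease of the alternative C3 convertase, stood at 53.3 ± 15.4 and 57.3 ± 8.20 FPKM (SD, n = 3 each), with a difference of 0.13 and an interval from -0.44 to 0.70. The small difference of CFB turned negative under median-of-ratios scaling and quantile normalization. For CFD the difference was -0.19 with a wide interval, from -1.28 to 0.89, and it was -0.93 (adjusted p = 0.0960) under quantile normalization.

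CFP encodes properdin, which stabilises the alternative convertase and is made by leukocytes. It had 19.1, 8.92 and 9.26 FPKM in the fetal and 21.1, 46.5 and 62.1 FPKM in the neonatal libraries. As for C2, the groups did not overlap but Neonatal1 was close to Fetal1. The mean was 3.48-fold higher after birth, with a difference of 1.67 (standard error 0.44, interval 0.65 to 2.70, adjusted p = 0.0670). Without Neonatal1 the difference was 2.11 with an adjusted p of 0.0376, and with any other library left out the adjusted p was 0.0898 to 0.24. Relative to CFD in the same library, CFP stood at 0.0103, 0.00431 and 0.00339 before birth and at 0.0161, 0.0229 and 0.0235 after it (two-sided p = 0.1 by exact permutation, again the lower limit, and 0.233 adjusted over the 7 ratios).

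The 3 measured soluble inhibitors were not past the threshold. SERPING1, the C1 inhibitor, which also blocks the contact system of coagulation, had 87.3, 64.5 and 88.0 FPKM in the fetal and 48.2, 57.6 and 52.7 FPKM in the neonatal libraries. Every neonatal value lay below every fetal one. Its difference of -0.58 (standard error 0.20, interval -1.05 to -0.10) had an adjusted p of 0.139 as deposited, and it was past the threshold after median-of-ratios scaling (-0.75, adjusted p = 0.0434) and after quantile normalization (-0.95, adjusted p = 0.0149). CFI, factor I, which cleaves C3b and C4b, had 14.9 ± 2.76 and 13.7 ± 4.43 FPKM (SD, n = 3 each; interval of the difference -0.74 to 0.46). CLU, clusterin, which binds the forming pore, was at 97.1, 65.2 and 90.2 and at 86.1, 154 and 94.4 FPKM, where Neonatal2 alone lay above all fetal values.

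All 3 measured receptor genes had higher means in the neonatal group, and none was past the threshold in limma, while 2 of them had an unadjusted p under 0.05, as did 24.2% of all mRNAs. ITGB2, the beta 2 chain shared by the leukocyte integrins, among them complement receptor 3, had 22.9, 11.97 and 18.8 FPKM in the fetal and 26.7, 57.1 and 65.3 FPKM in the neonatal libraries. The groups did not overlap, and Neonatal1 was again the nearest to the fetal values. The difference was 1.37 (standard error 0.38, interval 0.49 to 2.26, adjusted p = 0.0767). Without Neonatal1 it was 1.76 with an adjusted p of 0.0352, and with any other library left out the adjusted p was 0.131 to 0.254. C3AR1, the receptor of C3a, went from 4.16, 2.86 and 1.72 to 4.28, 7.15 and 6.83 FPKM (difference 0.88, interval 0.19 to 1.57, adjusted p = 0.127). ITGAM, the alpha chain of complement receptor 3, was low, at 1.17, 0.558 and 0.479 and at 1.69, 2.88 and 1.00 FPKM, and overlapped because Neonatal3 lay below Fetal1.

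Leukocyte markers moved in the same libraries. Summed over 10 macrophage markers, the fetal libraries had 501, 206 and 336 FPKM and the neonatal libraries 481, 984 and 1196 FPKM. None of the 10 was past the threshold in limma, and 8 had an unadjusted p under 0.05 (24.2% of all mRNAs). AIF1, among these 8, had its symbol only through the study's list. All 10 had a higher mean after birth, and their sum was lowest in Fetal2 and highest in Neonatal3. C1QA, C1QC, C2, CFP and ITGB2 had the same lowest and highest libraries, while C3AR1 and ITGAM were lowest in Fetal3 and highest in Neonatal2. Over all mRNAs, Fetal2 was the lowest fetal library in 40.6% and Neonatal3 the highest neonatal library in 44.5%. The median-of-ratios scaling factor was also lowest in Fetal2, at 0.908, and highest in Neonatal3, at 1.154. Summed mesenchymal and alveolar type II markers had the same lowest and highest libraries, as did the summed FPKM of all mRNAs, at 339490 and 777980. By gene, COL1A2, COL3A1 and SFTPB had this order, while DCN, LUM, SFTPC, SFTPD, ABCA3 and NAPSA did not. Among the macrophage markers, all but CSF1R, CD14 and PPARG had it. As a share of all mRNAs, the macrophage sum was lowest in Fetal2 (0.0608%) and highest in Neonatal2 (0.163%). The 5 neutrophil markers summed to between 84.5 and 158 FPKM before birth and between 846 and 1334 FPKM after it, and 3 of them (S100A8, S100A9 and S100A12) were past the threshold. S100A9 and S100A12 had their symbols only through the study's list. None of these markers was listed at 0, and MPO, CXCR2 and CD163 were among those without a row. In bulk tissue, more cells of a type and more RNA per cell cannot be told apart, and the part of leukocyte numbers in the values of C1QA, C1QC, C2, CFP, C3AR1, ITGAM and ITGB2 was not tested.

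**Figure D3:**
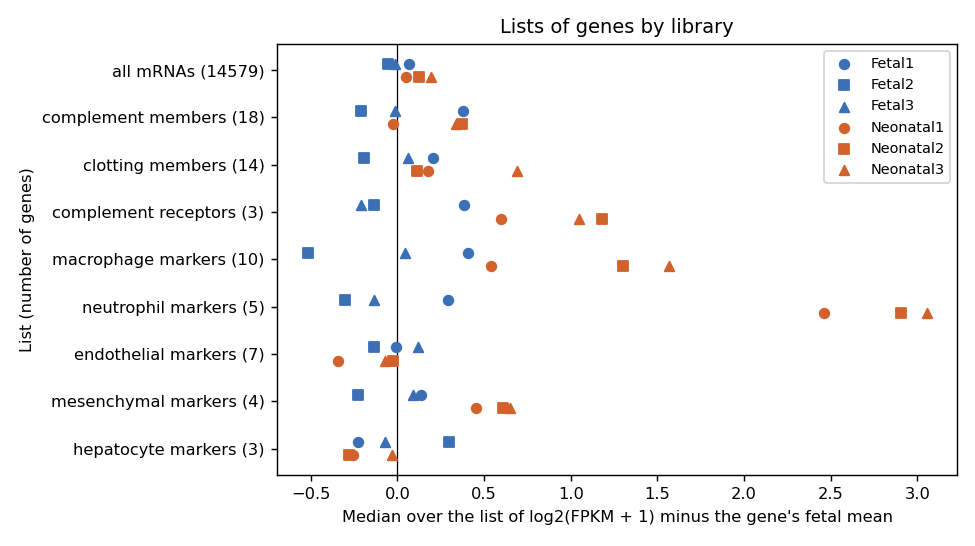
For each library, the median over a list of log2(FPKM + 1) minus the gene's fetal mean, for all mRNAs, the complement and clotting members, the complement receptors and 5 marker lists; each point is a library, and the number of genes is in brackets. The 3 receptors and the macrophage markers share the order of the neonatal libraries only in part, with Neonatal1 lowest in both, at 0.60 and 0.54, and the neutrophil markers lie between 2.46 and 3.05 in the neonatal libraries.

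The clotting and fibrinolysis genes were mostly lower in level than the complement genes. A2M lay above 100 FPKM in every library, F3, THBD and PROS1 lay between 10 and 100 FPKM, and F10, F13A1, TFPI, PROCR and SERPINC1 stayed below 5 FPKM in each. SERPINE2 and PLAUR rose, none fell, and the other 12 were not past the threshold. These 2 calls of 14 (14.3%) stand beside 6.87% of all mRNAs called in either direction and 5.41% in the higher direction. Without PLAUR and THBD, which had their symbols through the study's list, 1 of 12 was past the threshold (8.33%). The groups did not overlap for 5 genes in the higher direction (F8, F13A1, SERPINE2, PLAU and PLAUR), beside 20.9% of all mRNAs, and for THBD in the lower direction, beside 9.64%. Without PLAUR and THBD these were 4 of 12 and 0 of 12. The median difference over the 14 was 0.26, and it was 0.10 with median-of-ratios scaling and 0.041 with quantile normalization.

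**Figure D4:**
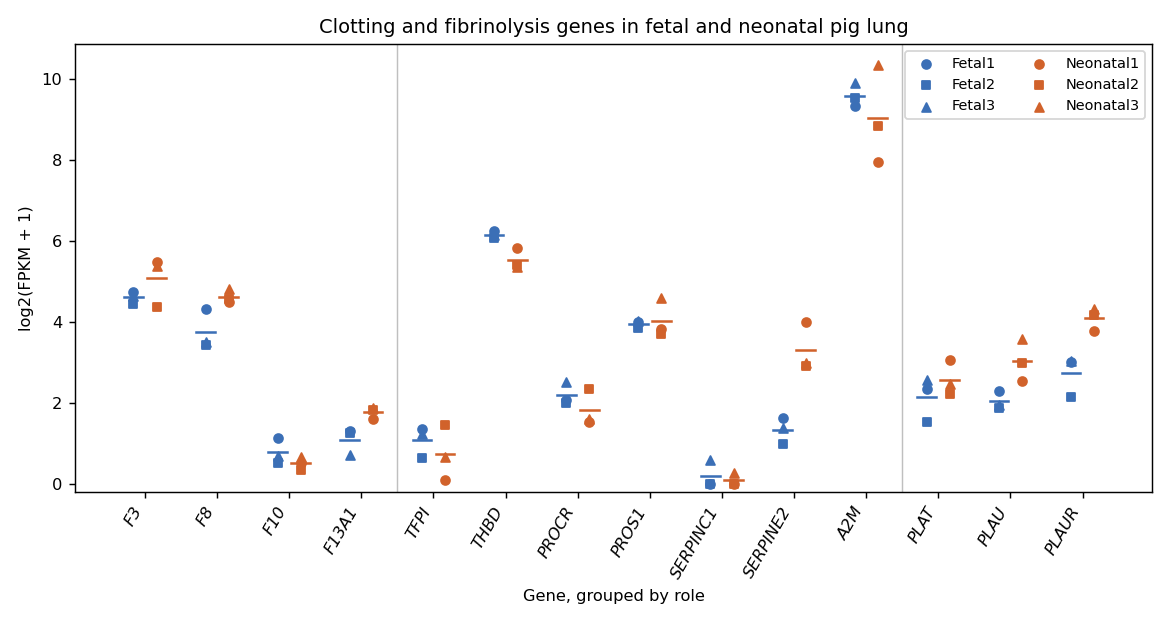
Level of the 14 clotting and fibrinolysis genes as log2(FPKM + 1) in each library, in blocks for procoagulant factors, anticoagulants and inhibitors, and plasminogen activation; points are libraries, marker shapes give the replicate and short lines are group means. SERPINE2 and PLAUR separate by group, and the neonatal values of A2M spread from 247 to 1304 FPKM.

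SERPINE2 (ENSSSCG00000016233) showed the largest difference among the 32 members. It encodes protease nexin 1, a serpin of cell surfaces that inhibits thrombin and the plasminogen activators. It had 2.08, 0.981 and 1.61 FPKM in the fetal and 14.9, 6.51 and 6.88 FPKM in the neonatal libraries. The lowest neonatal value was well above the highest fetal value, and Neonatal1, which was nearest to the fetal group for C2, CFP and ITGB2, was here the farthest from it. The means were 1.56 ± 0.551 and 9.43 ± 4.73 FPKM (SD, n = 3 each). SERPINE2 rose 6.06-fold, a difference of 1.96 (standard error 0.33, interval 1.18 to 2.74, adjusted p = 0.0183). With Neonatal1 left out the difference was 1.61 and the adjusted p 0.0323. Without Fetal1, Fetal2, Fetal3, Neonatal2 or Neonatal3 the adjusted p lay between 0.0562 and 0.101, with differences from 1.79 to 2.15.

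The remaining anticoagulants and inhibitors were not past the threshold. THBD encodes thrombomodulin, the endothelial receptor that turns thrombin into an activator of protein C, and its values are a description because of the way its symbol was found. It had 75.0, 66.1 and 69.8 FPKM in the fetal and 55.3, 41.2 and 40.2 FPKM in the neonatal libraries, so that the groups did not overlap. The mean level was 1.54-fold higher before birth, and the difference was -0.63 (interval -1.09 to -0.17, adjusted p = 0.106). Without Neonatal1 it was -0.77 with an adjusted p of 0.0477, and with any other library left out the adjusted p was 0.2035 to 0.261. PROCR, the endothelial receptor of protein C, overlapped, with 3.20, 2.997 and 4.67 FPKM before and 1.88, 4.07 and 2.04 FPKM after birth. Of the 7 endothelial markers, none was past the threshold in limma, and 3 had an unadjusted p under 0.05, beside 24.2% of all mRNAs. The 7 differences ran from -0.74 for EMCN to 1.197 for CLDN5, both named only through the study's list. Apart from these, KDR alone had an unadjusted p under 0.05.

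PROS1, protein S, the cofactor of activated protein C, stood at 14.5 ± 0.985 and 15.97 ± 6.05 FPKM (SD, n = 3 each), and Neonatal3 alone, at 22.9 FPKM, lay above the fetal range. TFPI, the inhibitor of the tissue factor complex, was low and scattered, from 0.550 to 1.53 FPKM before birth and from 0.0718 to 1.71 FPKM after it. A2M, alpha 2 macroglobulin, a trap for proteases, had 645, 734 and 965 FPKM in the fetal libraries. In the neonatal libraries it had 247, 454 and 1304 FPKM, which placed both the lowest and the highest of its 6 values in that group. Its difference of -0.55 therefore had an interval from -1.93 to 0.84 and was -1.199 without Neonatal3 but -0.0007 without Neonatal1. SERPINC1, antithrombin, a liver protein, was listed at 0 in Fetal1, Fetal2, Neonatal1 and Neonatal2 and at 0.504 and 0.208 FPKM in Fetal3 and Neonatal3.

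None of the 4 procoagulant factors passed in limma, and 2 had an unadjusted p under 0.05, beside 24.2% of all mRNAs. F8, factor VIII, the cofactor of factor IX, which endothelium makes, had 18.8, 9.69 and 10.3 FPKM in the fetal and 21.3, 22.5 and 27.2 FPKM in the neonatal libraries. These did not overlap, with Fetal1 just below Neonatal1, and the difference was 0.88 (standard error 0.27, interval 0.25 to 1.505, adjusted p = 0.101). F13A1, the chain of factor XIII that crosslinks fibrin, did not overlap either, at 1.46, 1.37 and 0.645 and at 2.04, 2.53 and 2.65 FPKM (difference 0.68, interval 0.14 to 1.22, adjusted p = 0.131). F3, tissue factor, had 25.8, 20.7 and 24.01 FPKM before birth. After birth it had 43.3 FPKM in Neonatal1 and 40.9 FPKM in Neonatal3 but 19.8 FPKM in Neonatal2, below all fetal values. F10, factor X, lay under 1.3 FPKM in every library.

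Thrombomodulin and tissue factor act on opposite sides of thrombin formation, and their ratio within a library was among the 7 computed. THBD had 2.91, 3.19 and 2.91 times the FPKM of F3 in the fetal libraries and 1.28, 2.08 and 0.982 times in the neonatal libraries. The groups did not overlap, and the mean ratio was 2.07 times larger before birth. An exact permutation test gave a two-sided p = 0.1, again the lower limit, or 0.233 adjusted over the 7 ratios. These values are a description, since the symbol of THBD came through the study's list.

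In plasminogen activation, all 3 genes had higher means after birth, and PLAUR passed. PLAUR (ENSSSCG00000003065) encodes the receptor that holds urokinase on the cell surface, and its symbol came through the study's list, so its call is no independent evidence. It had 7.09, 3.44 and 7.196 FPKM in the fetal and 12.7, 17.1 and 18.8 FPKM in the neonatal libraries, without overlap. With means of 5.91 ± 2.14 and 16.2 ± 3.13 FPKM (SD, n = 3 each), PLAUR rose 2.74-fold, a difference of 1.35 (standard error 0.29, interval 0.68 to 2.03, adjusted p = 0.0356). With any library left out the adjusted p was between 0.0549 and 0.129. PLAU, urokinase itself, had 3.92, 2.65 and 2.86 FPKM before and 4.78, 6.94 and 10.95 FPKM after birth. These did not overlap either, and the difference of 0.99 (standard error 0.29, interval 0.31 to 1.68) had an adjusted p of 0.0924.

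PLAT, the tissue-type activator, overlapped, at 4.03, 1.85 and 4.86 and at 7.26, 3.62 and 4.49 FPKM. The ratio of PLAUR to PLAU overlapped widely, between 1.298 and 2.52 and between 1.72 and 2.66.

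**Figure D5:**
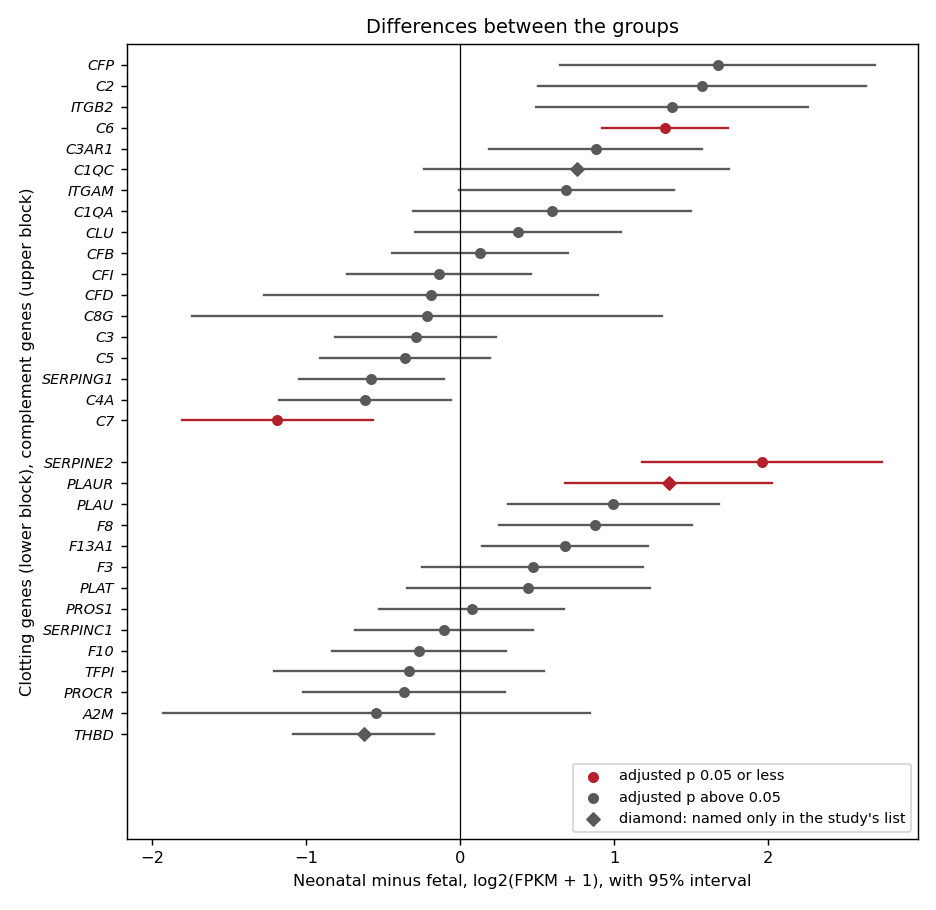
Difference between neonatal and fetal means of log2(FPKM + 1) for the 32 members, as points with 95% intervals from limma, complement genes above and clotting genes below; red marks an adjusted p of 0.05 or less and diamonds the genes named only through the study's list. C6, C7, SERPINE2 and PLAUR are past the threshold, and the intervals of CFP, C2 and ITGB2 are wider than that of C6 although their differences are larger.

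For most members the data set limits on a difference rather than showing its absence. The 95% interval spanned 0 for 10 of the 18 complement and 8 of the 14 clotting genes. It lay within 1 log2 unit of 0 on both sides for C3, CFB, C5 and CFI among the complement genes not past the threshold and for F10, PROS1 and SERPINC1 among such clotting genes, and F10 and SERPINC1 were so low that the scale compresses their change.

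Among 60 other genes of these pathways, 24 had a row, 9 of complement and 15 of clotting and fibrinolysis. Past the threshold were CALR and S100A10, which rose, and KNG1 and F2RL2, which fell. These 4 calls of 24 (16.7%), or 3 of 23 without F2RL2, stand beside 6.87% of all mRNAs. KNG1, kininogen, the source of bradykinin and a cofactor of the contact system, had 4.04, 4.31 and 4.30 FPKM in the fetal and 1.13, 0.533 and 0.0374 FPKM in the neonatal libraries (difference -1.80, standard error 0.28, adjusted p = 0.0140). The fetal values were nearly equal, and all neonatal values lay far below them. F2RL2, a protease-activated receptor of thrombin, had 82.7, 48.9 and 61.3 FPKM and then 20.7, 22.5 and 28.5 FPKM (difference -1.37, standard error 0.24, adjusted p = 0.0206), and its symbol too came through the study's list.

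S100A10, which together with ANXA2 binds plasminogen and its tissue-type activator at the cell surface, went from 139, 95.6 and 145 to 372, 247 and 289 FPKM (difference 1.25, adjusted p = 0.0376). Its call was lost under median-of-ratios scaling (adjusted p = 0.0535) and quantile normalization (adjusted p = 0.143). ANXA2 was not past the threshold, with a difference of 0.33 and an interval from -0.32 to 0.98. CALR, calreticulin, a chaperone that also binds C1q, went from 149, 104 and 124 to 229.6, 317 and 317 FPKM (difference 1.19, adjusted p = 0.0350), and its adjusted p was above 0.05 with every left-out library but Neonatal1. KNG1 stayed past the threshold without Neonatal1 or Neonatal3, while its adjusted p was at most 0.0814 without any other library and 0.0504 with a pseudocount of 0.1. For F2RL2 and S100A10 the call was lost with any library left out. The thrombin gene F2, at 0.0128 to 1.16 FPKM, and F7, at 0.489 to 5.78 FPKM, were low.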

How the data were processed

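Lung RNA of 6 piglets was sequenced from ribosomal-RNA-depleted, strand-specific libraries, 1 per piglet. The authors mapped reads to the Ensembl pig genome Sscrofa10.2 with TopHat2 2.1.0 and deposited FPKM from Cufflinks 2.2.1 for mRNAs above 0.5 FPKM in at least 1 library. The table of lncRNAs was not used here. Columns were matched to samples by name, groups came from the sample titles, and symbols came from a gene name table or, where it had none, from the study's list of differentially expressed genes, of which 1998 were held. The fit used log2(FPKM + 1) in limma 3.58.1 (R 4.3.3) with a variance trend, all 6 libraries and Benjamini-Hochberg adjustment over 14579 mRNAs, and was tested on simulated data. Within-library ratios were compared in Python 3.11.15 by exact permutation over libraries. Of the 7 ratios, 1 is not reported here. All members with a row could be named, other pathway genes if past the threshold, and markers as lists with their defining genes. C9, ANXA2, F2, F7, ITGAV, C5AR2 and SERPINA5 fall outside this rule and were chosen after their values were seen. The members and lists were chosen with earlier results of these data known. Alternatives were pseudocounts of 0.5 and 0.1, FPKM above 1 in at least 3 libraries, median-of-ratios scaling, quantile normalization, a constant variance, a block for the replicate number, and omission of each library in turn. Counts without the genes named only through the study's list were added after seeing the data. Summed markers of erythroid, mesenchymal, alveolar type II, lymphocyte, platelet and hepatocyte cells are given among the closing observations.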

Additional observations from a re-analysis of the deposited data

How the results depend on the processing

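With 3 piglets per group, counts of calls depended on single libraries. With each library left out in turn, the calls numbered 196 to 944 over all mRNAs (1001 with all libraries), 0 to 4 for the complement genes, 0 to 2 for the clotting genes and 0 to 2 for the other pathway genes. The 4 complement calls without Neonatal1 were C2, CFP, C6 and ITGB2. With the replicate number as a block there were 401 calls over all mRNAs and 1 each for complement (C6), clotting (SERPINE2) and the other pathway genes (KNG1). Same-numbered piglets had different sows, and the correlations of their deviations were -0.0407, -0.00434 and 0.000467, so the numbers do not pair them. Without the genes named only through the study's list, 1 clotting gene remained called. Small differences that were not past the threshold changed sign. CFB was -0.046 under median-of-ratios scaling, -0.19 under quantile normalization and -0.031 to 0.35 with a library left out. PROS1 was -0.093, -0.14 and -0.20 to 0.24 in the same order. CLU was -0.012 under quantile normalization. With a library left out, CFD ran from -0.43 to 0.083, C8G from -0.85 to 0.27, CFI from -0.37 to 0.053, and SERPINC1 from -0.20 to 0.091. Quantile normalization also moved C1QA from 0.60 to 0.11, C1QC from 0.76 to 0.20, C3 from -0.29 to -0.73, CFD from -0.19 to -0.93 and A2M from -0.55 to -1.13, none of them past the threshold. C6 and SERPINE2 kept their calls under all 7 alternatives with all libraries. The files give no read counts, so the part of depth in these limits could not be computed.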

Other observations

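Within each group the members followed an order of libraries. Of the 31 members without tied values, Fetal2 was the lowest fetal library for 23 and Fetal1 the highest for 23, and Neonatal1 was the lowest neonatal library for 22. Over all mRNAs without ties, these places were taken by the same libraries in 40.6%, 43.0% and 45.8%. The median-of-ratios scaling factors had the same libraries in these places. They were 1.009, 0.908 and 0.946 in the fetal and 1.001, 1.086 and 1.154 in the neonatal libraries. Among the 10 members whose neonatal values all lay above the fetal ones, Neonatal1 was the lowest neonatal library for 9 and the highest for 1, SERPINE2.

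ITGAV, a chain of the vitronectin receptor, had 20.1, 46.3 and 34.9 FPKM in the fetal libraries and 30.2, 245 and 1954 FPKM in Neonatal1, Neonatal2 and Neonatal3 (limma, difference 2.90, standard error 1.299, adjusted p = 0.224). C5AR2, a receptor of C5a, had 1.37, 1.53 and 4.90 FPKM before birth and after it was listed at 0 in Neonatal1 and had 0.217 and 1.31 FPKM in the others (limma, difference -1.22, adjusted p = 0.153). SERPINA5, the protein C inhibitor, was low but did not overlap, at 0.195 to 0.246 FPKM and 0.463 to 1.22 FPKM (limma, adjusted p = 0.187).

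Summed marker levels of other cell types are given for reading the members. The 4 mesenchymal markers summed to 869.9 to 1103 FPKM before birth and 1158 to 1484 FPKM after it, the 5 alveolar type II markers to 4409 to 4987 and 5648 to 10580 FPKM, and the 4 erythroid markers to 2868 to 8998 and 2932 to 4495 FPKM. The summed FPKM of all mRNAs itself ran from 339490 to 471220 before birth and from 491550 to 777980 after it. As a share of it, mesenchymal markers had 0.231% to 0.259% before birth and 0.191% to 0.236% after it. Alveolar type II markers had 1.045% to 1.299% and 1.149% to 1.36%. Erythroid markers had 0.845% to 1.909% and 0.561% to 0.596%. None of the mesenchymal, alveolar type II and erythroid markers was past the threshold in limma. An unadjusted p under 0.05 was found for 2, 0 and 0 of them, beside 24.2% of all mRNAs. HBA2 among the erythroid markers had its symbol only through the study's list. The 5 lymphocyte markers summed to between 6.22 and 14.7 FPKM over all libraries. They gave 0 calls and 3 at an unadjusted p under 0.05, beside 24.2% of all mRNAs. Of the platelet markers 2 had a row, summing to 1.19 to 3.11 and 5.06 to 7.996 FPKM, and TUBB1 rose (limma, adjusted p = 0.0217) while GP1BB was listed at 0 in 3 libraries. Their share of the summed FPKM of all mRNAs was 0.00035% to 0.00066% before birth and 0.00065% to 0.0014% after it. The 3 hepatocyte markers summed to 10.21 to 22.6 and 18.9 to 33.0 FPKM, most of it APOA1, with 0 calls and 0 at an unadjusted p under 0.05.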
